A study of Homo sapiens with 4 samples.

Results

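Metallothioneins were followed here in the RNA-seq of HGC-27 cells, a human gastric cancer cell line, in control cells and in cells with a RUNX3 knock-out. The genes were taken by symbol, and the 6 members were MT2A, MT1E, MT1F, MT1G, MT1M and MT1X, of 25559 gene symbols in each count table. All 6 were listed, and 3 of them (MT2A, MT1X and MT1G) had enough reads to be tested among 12967 genes. MT2A and MT1X fell in the RUNX3 KO libraries, MT2A by 2.14-fold and MT1X by 1.75-fold. MT1G was about as much lower (2.07-fold), but on few reads, while MT1F and MT1M had no read in any library and MT1E had reads in 1 library.

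The series held 2 libraries of wildtype cells, called control below, and 2 of RUNX3 knock-out cells. RUNX3 KO cells had been transduced with a lentiviral vector that expressed Cas9 and a guide RNA against RUNX3, selected with puromycin and passed through single-cell cloning. The sources used here do not give how many clones were sequenced, whether control cells carried an empty vector, or whether replicates were separate cultures. The p-values thus measure only the spread between these libraries, and a clone cannot be told apart from the knock-out. That spread was close to counting error. The chi-square per degree of freedom, which counting error alone puts near 1, was 1.23 between control and 1.19 between RUNX3 KO libraries. Both conditions shared 1 medium, which the labels give as MEM and the methods as RPMI1640.

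Metallothioneins are small proteins rich in cysteine that bind zinc and copper through thiolate clusters and buffer their free concentration in the cell. Most human genes of the family stand side by side on the long arm of chromosome 16. Zinc, cadmium and other metals induce them through the transcription factor MTF1, which binds metal response elements in their promoters, and glucocorticoids and oxidants raise some of them as well. MT2A is the most widely expressed member, the MT1 genes arose from duplications and are expressed more selectively, MT3 is known mainly from brain and MT4 from squamous epithelium.

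The members are near copies of each other, which matters for how their reads were assigned, so the coding sequences of the 3 members that were tested are shown first. They were read from GRCh37, the build that the study calls hg19, without the stop codon, from an annotated transcript with 3 coding exons. Capitals in MT1X and MT1G mark bases that differ from MT2A in the alignment. The coding exons of MT2A span chr16:56642568-56643263 on the plus strand, those of MT1X chr16:56716453-56717958 on the plus strand and those of MT1G chr16:56700794-56701905 on the minus strand.
MT2A: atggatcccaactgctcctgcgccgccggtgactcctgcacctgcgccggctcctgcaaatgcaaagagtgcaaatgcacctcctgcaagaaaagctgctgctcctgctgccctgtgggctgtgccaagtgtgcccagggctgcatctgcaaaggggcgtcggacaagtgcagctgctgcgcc
MT1X: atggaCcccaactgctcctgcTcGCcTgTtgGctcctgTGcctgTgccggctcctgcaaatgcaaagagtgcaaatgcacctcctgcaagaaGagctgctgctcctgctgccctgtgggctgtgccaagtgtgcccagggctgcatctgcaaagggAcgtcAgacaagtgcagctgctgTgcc
MT1G: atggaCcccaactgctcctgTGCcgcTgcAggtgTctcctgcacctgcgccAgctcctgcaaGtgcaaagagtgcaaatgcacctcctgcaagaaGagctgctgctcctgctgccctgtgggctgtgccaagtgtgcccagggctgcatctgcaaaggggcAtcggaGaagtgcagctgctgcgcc

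MT1X differed from MT2A at 14 of 183 coding positions, an identity of 92.3%, and MT1G at 12 aligned positions including 3 bases that MT2A lacks. Across all pairs of the 6 members, identity ranged from 88.5% (MT1F and MT1X) to 93.5% (MT1G and MT2A). In 5 members 20 of 61 codons encode cysteine, and in MT1G 20 of 62. Exact windows of each spliced transcript were therefore searched against the rest of the genome and the transcripts of other genes. With windows of 36 bases, the share that matched no other locus was 72.7% in MT2A, 72.1% in MT1X, 71.5% in MT1G, 88.3% in MT1E, 89.0% in MT1F and 66.7% in MT1M. With windows of 75 bases it was 100% in MT2A and MT1F, 99.2% in MT1E, 98.8% in MT1M, 93.5% in MT1G and 91.8% in MT1X, and at 100 bases it was 100% in all 6. The read length is not given in the sources used here. The tables list 8.95% to 9.07% of all counts as reads without a unique alignment, which were not counted on any gene.

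Promoters of MT2A and MT1X are printed because both genes fell together and because metal response elements are the known entry point of MTF1. The RefSeq promoter table (GRCh38.p14) had an entry for 2 of the 6 members. The 250 bases before each annotated start site are given, on the plus strand, at chr16:56608334-56608583 for MT2A and chr16:56682220-56682469 for MT1X. Capitals mark matches on either strand to the core of the metal response element, searched as TGCACNC and TGCGCNC, and none of them overlaps another.
MT2A: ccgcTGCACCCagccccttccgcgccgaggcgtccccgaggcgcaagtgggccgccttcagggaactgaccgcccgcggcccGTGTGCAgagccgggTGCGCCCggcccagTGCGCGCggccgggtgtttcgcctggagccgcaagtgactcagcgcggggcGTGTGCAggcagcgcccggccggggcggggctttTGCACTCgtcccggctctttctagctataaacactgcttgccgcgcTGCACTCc
MT1X: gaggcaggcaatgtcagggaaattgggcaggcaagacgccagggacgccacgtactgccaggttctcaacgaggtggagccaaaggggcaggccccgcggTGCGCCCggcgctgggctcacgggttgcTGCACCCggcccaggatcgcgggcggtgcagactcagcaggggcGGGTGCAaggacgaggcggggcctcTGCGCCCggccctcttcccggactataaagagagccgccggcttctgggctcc

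MT2A had 7 core matches and MT1X had 4. Of 35116 promoters of the same length in the table, 24.8% had a match and 0.370% had 4 or more. MT2A also had 1 match to the AP-1 motif TGANTCA, which 6.57% of promoters hold, and MT1X had none. Neither sequence held a RUNX motif, searched as TGTGGT and TGCGGT, which 16.3% of promoters hold. The matches did not separate expressed from unexpressed genes of the family, since MT1H had 8 core matches, MT1B 3 and MT4 3, and all 3 genes were listed at 0 counts in every library. A match is a description of letters in this window and says nothing about binding in these cells.

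**Figure D1:**
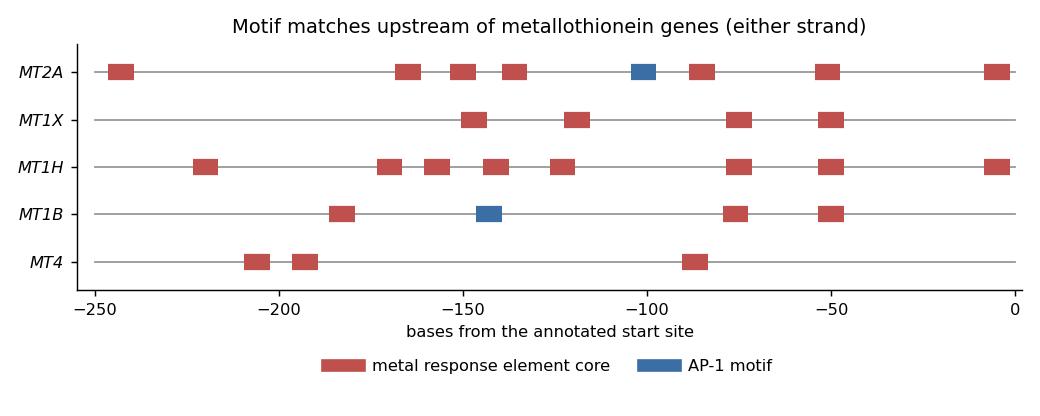
Matches to the metal response element core (red) and the AP-1 motif (blue) on either strand, by distance in bases from the annotated start site (x axis), for the 5 metallothionein genes with a promoter entry. MT2A and MT1X, which had reads, carry 7 and 4 core matches, and MT1H, without reads, carries 8.

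Each library had between 11731401 and 12110876 reads assigned to genes. RUNX3 itself had 351 and 308 counts in control libraries and 225 and 185 in RUNX3 KO libraries, so its transcript was lower but present (log2 fold change -0.70, SE 0.0961). Without RUNX3 KO replicate 2 the value was -0.55 and the call was lost. The paper reports that the knock-out was checked by RT-qPCR and by immunoblot, with no RUNX3 protein seen. Read counts do not measure protein. Markers of the labelled gastric origin were absent, with GKN1, GKN2, TFF1, MUC5AC, PGC and GIF at 0 in every library, and epithelial markers were low, with EPCAM at 1 count at most and KRT19 at 0. KRT8 had 19 and 11 counts in control and 72 and 81 in RUNX3 KO libraries, CDH1 had 15 and 21 against 30 and 32, and KRT18 had 0 and 0 against 2 and 14. The summed level of these 5 epithelial genes was 2.80 to 2.96 CPM (counts per 1000000 of the TMM-scaled library size) in control and 8.81 to 10.6 CPM in RUNX3 KO libraries. Fibroblast-type markers DCN, LUM and PDGFRA were expressed and summed to 337 to 338 CPM in control and 237 to 243 CPM in RUNX3 KO libraries, and mesenchymal markers VIM, FN1, CDH2 and ZEB1 to 4966 to 4996 CPM and 2939 to 3012 CPM, while 4 leukocyte markers stayed at or below 0.678 CPM and 3 endothelial markers at or below 0.339 CPM. VIM made up most of the mesenchymal sum, at 4885 CPM in control and 2901 CPM in RUNX3 KO cells. FN1 (8.90 against 1.09 CPM) and ZEB1 (87.2 against 72.9 CPM) were also lower, and CDH2 had 3 counts at most. The summed epithelial, mesenchymal and fibroblast markers thus moved with the genotype, and their part in the results below was not tested. In bulk RNA, fewer cells of a kind and less RNA per cell cannot be told apart.

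MT2A encodes the main housekeeping metallothionein. It had 443 and 481 counts in control libraries and 232 and 203 in RUNX3 KO libraries, or 37.5 and 40.8 CPM against 19.7 and 16.9 CPM. Both RUNX3 KO libraries were thus low and the groups did not overlap. The mean went from 39.1 ± 2.29 CPM (SD, n = 2) to 18.3 ± 1.96 CPM (SD, n = 2), which is -1.10 on the log2 scale (SE 0.0859). The edgeR adjusted p was 3.63e-20 (quasi-likelihood test, Benjamini-Hochberg over the tested genes). Among 6529 tested genes with a negative fold change, MT2A ranked 231 by p and 430 by size. In fits without any one library, the value stayed between -1.21 and -0.99 and the edgeR adjusted p at 0.0223 or below.

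MT1X, the inducible MT1 gene at the far end of the cluster, had 118 and 165 counts in control libraries and 89 and 74 in RUNX3 KO libraries. In CPM these were 9.99 and 14.0 against 7.54 and 6.16, so the groups again did not overlap, but the lower control library lay closer to the RUNX3 KO libraries than to its own replicate. Control replicate 1 held 41.7% of the MT1X counts of the control pair (exact 95% interval 35.9% to 47.7%, for counting error only) where library sizes gave 50.01%. For MT1X in the RUNX3 KO pair, and for MT2A and MT1G in both pairs, the interval included the share from library sizes. MT1X went from 11.99 ± 2.82 CPM to 6.85 ± 0.980 CPM (SD, n = 2 per condition), or -0.81 on the log2 scale (SE 0.148, edgeR adjusted p = 2.55e-06). The value was -0.55 without control replicate 2 and -1.03 without control replicate 1. Without RUNX3 KO replicate 1 or 2 it was -0.96 or -0.67, and the call was lost in both fits. Fewer genes of all kinds were called without a RUNX3 KO library than without a control library.

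MT1G, also an MT1 gene, is read from the minus strand, opposite to the other members. It had 16 and 13 counts in control libraries and 7 and 7 in RUNX3 KO libraries. The level was 1.23 ± 0.179 CPM in control cells and 0.588 ± 0.00765 CPM in RUNX3 KO cells (SD, n = 2 per condition). On the log2 scale this was -1.05 with an SE of 0.435, and the edgeR adjusted p of 0.0404 stood close to the threshold. The gene passed the filter on low counts only through the control libraries, where it was higher. DESeq2 gave an adjusted p of 0.331, and the call was also lost without any one of the 4 libraries (edgeR adjusted p from 0.0748 to 0.227) and without a filter on low counts (0.0692), so the difference in MT1G was not settled at this depth.

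MT1E had 0 and 0 counts in control libraries and 0 and 4 in RUNX3 KO libraries, the opposite order to the 3 genes above, on reads from RUNX3 KO replicate 2 alone. MT1F and MT1M were listed at 0 in all 4 libraries. A count of 0 allows up to 3 counts, which is 0.250 to 0.254 CPM in these libraries and covers counting error only. In GRCh37, MT1E lies at chr16:56659387-56661024, MT1M at chr16:56666571-56667893 and MT1F at chr16:56691643-56694610, all on the plus strand between MT2A (chr16:56642496-56643409) and MT1G (chr16:56700642-56701977). MT1E, MT1F and MT1M did not pass the filter and were not tested. Of all 25559 symbols, 30.9% were listed at 0 in every library.

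**Figure D2:**
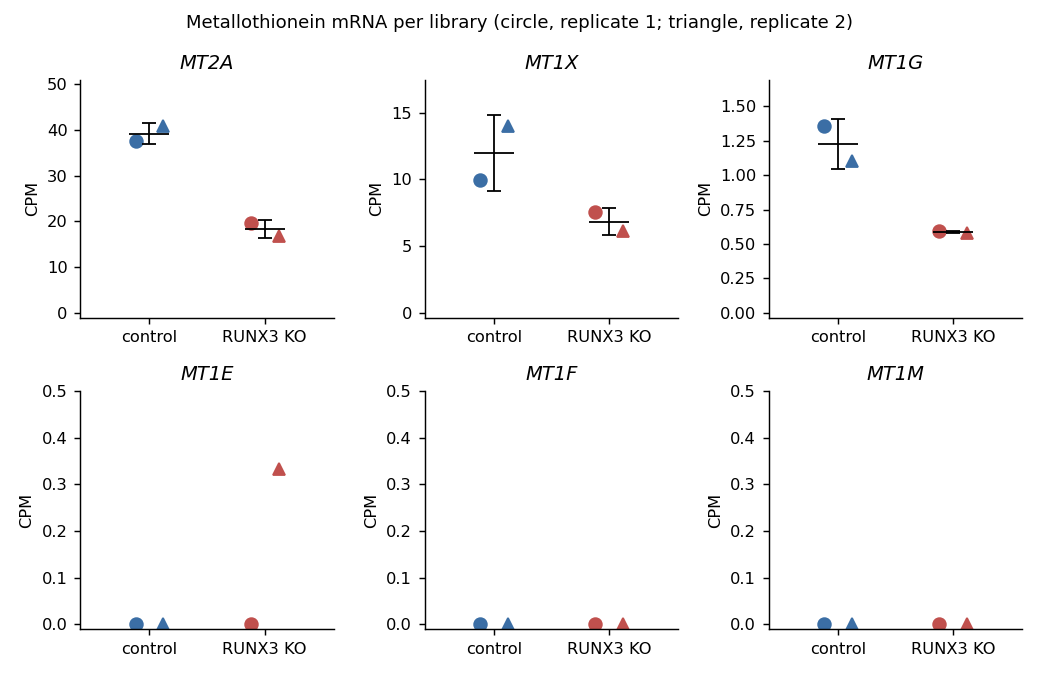
Level of each member in CPM (y axis, linear, each panel on its own scale) in the control (blue) and RUNX3 KO (red) libraries; circles are replicate 1, triangles replicate 2, and for MT2A, MT1X and MT1G the bar is the mean with its SD (n = 2). The RUNX3 KO points of those 3 genes lie below both control points, MT1E has 1 point above 0, and MT1F and MT1M lie at 0.

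MT2A and MT1X had at least 10 counts in every library, and both were lower at an edgeR adjusted p under 0.05, where 24.4% of all tested genes were. MT1G is left out of these counts, since it was tested only through the libraries where it was high. By the criteria of the study, a fold change of at least 2 and p at most 0.05, MT2A was lower and MT1X was not called, where 4.01% of all tested genes were lower, 2.11% were higher and 6.12% changed in either direction. Groups of both genes did not overlap, with RUNX3 KO lower, as in 36.4% of tested genes. Over all tested genes the median was -0.0021 on the log2 scale. Without either RUNX3 KO library, MT2A alone passed the adjusted p. Without RUNX3 KO replicate 2 its change was just under 2-fold (-0.99 on the log2 scale), and no member met the criteria of the study.

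Because reads of near copies may be split or lost between genes, the members were also summed in each library. The sum was 577 and 659 counts in control libraries and 328 and 288 in RUNX3 KO libraries. In CPM it went from 52.4 ± 4.93 to 25.9 ± 2.71 (SD, n = 2 per condition), 2.02-fold lower, with both RUNX3 KO libraries below both control libraries. No p is given for the sum, since its members were chosen with results known.

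Per length of spliced transcript, MT2A was the most abundant member in every library. Its level was 97.6 ± 5.71 CPM per kb in control and 45.6 ± 4.89 CPM per kb in RUNX3 KO cells, that of MT1X 29.7 ± 6.98 and 17.0 ± 2.42 CPM per kb, and that of MT1G 2.996 ± 0.437 and 1.43 ± 0.0187 CPM per kb (SD, n = 2 per condition). This order of levels held in all 4 libraries without overlap. Of the reads on MT2A and MT1X together, MT2A took 79.0% (95% Wilson interval 75.4% to 82.1%) and 74.5% (71.0% to 77.7%) in control replicates 1 and 2. In RUNX3 KO replicates 1 and 2 it took 72.3% (67.1% to 76.9%) and 73.3% (67.8% to 78.2%). Both control shares lay above both RUNX3 KO shares, the intervals of both control libraries overlapped those of both RUNX3 KO libraries, and the difference between conditions was not tested.

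Besides the members, 9 further metallothionein genes and pseudogenes were listed. Of these, 8 were at 0 in every library (MT1A, MT1B, MT1DP, MT1H, MT1IP, MT1L, MT3 and MT4), and the pseudogene MT1JP had 1 and 1 counts in control and 0 and 0 in RUNX3 KO libraries. Both groups of MT1JP lie under the floor of 3 counts, and no fold is given.

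The family spans 119 kb on chromosome 16, from MT4 to MT1X (56598985 to 56718108 in GRCh37). Of 10 tested neighbours, 4 on the side of MT2A, 5 on the side of MT1X and BBS2, which overlaps MT4, 5 were lower and 2 higher at an edgeR adjusted p under 0.05, where 24.4% and 24.5% of all tested genes were, and their median log2 fold change was -0.18. On the side of MT2A, the cilium gene BBS2 fell by 0.53 on the log2 scale (SE 0.0647). NUDT21, for a subunit of the polyadenylation machinery, and OGFOD1, for a hydroxylase of the ribosome, rose by 0.15 (SE 0.0327) and 0.12 (SE 0.0398). NUDT21, OGFOD1 and BBS2 overlap their neighbours on opposite strands, and without a stated strand setting their reads may be split. On the side of MT1X, the nucleoporin gene NUP93 had a log2 fold change of 0.04 (SE 0.0355), and HERPUD1, which acts in degradation at the endoplasmic reticulum, fell by 0.46 (SE 0.0540). CPNE2 fell by 0.26, and NLRC5 and FAM192A had log2 fold changes of -0.10 and 0.06 without passing the test. LPCAT2 (-0.62) and the matrix metalloproteinase gene MMP2 (-3.12) fell at distances of -1100 and -1219 kb from MT2A, where a negative sign means a lower coordinate, and of the 10 neighbours only MMP2 changed more than the 3 members. The calls of LPCAT2, CPNE2 and OGFOD1 were lost with DESeq2 (adjusted p = 0.131, 0.0727 and 0.156). Each was also lost without RUNX3 KO replicate 1 or 2, and those of CPNE2 and OGFOD1 without control replicate 1. The CPNE2 call was lost without a filter on low counts as well (edgeR adjusted p = 0.0712).

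**Figure D3:**
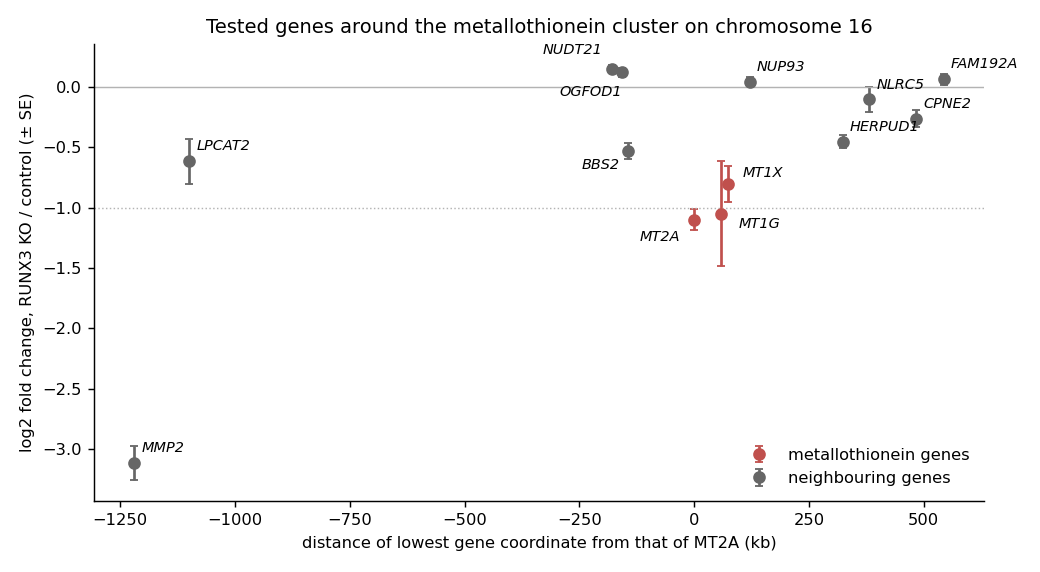
Log2 fold change of RUNX3 KO over control with its SE (y axis) by the distance of the gene's lowest coordinate from that of MT2A in kb (x axis), for the 3 tested metallothionein genes (red) and 10 tested neighbours (grey); the dotted line is a 2-fold fall. The metallothioneins lie from -1.10 to -0.81, below the 5 neighbours on the right, which lie from -0.46 to 0.06.

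Of 6 tested transcription factors known to act on metallothionein genes, 1 passed the test. MTF1, the metal sensor, had 441 and 476 counts in control libraries and 434 and 476 in RUNX3 KO libraries, so the groups overlapped, and the value was -0.02 on the log2 scale (SE 0.0720, edgeR adjusted p = 0.810). STAT3, which carries cytokine signals to MT genes, fell by 0.42 (SE 0.0602, edgeR adjusted p = 3.60e-09), and MTF1, NFE2L2, USF1, USF2 and SP1 did not pass, with log2 fold changes from -0.02 to 0.04. NR3C1, the glucocorticoid receptor gene, was listed at 0 in every library. Among 8 tested genes known to respond to glucocorticoids, 2 passed, with DUSP1, a MAP kinase phosphatase gene, at 0.29 and FKBP5, a receptor co-chaperone gene, at 0.12, where 48.9% of all tested genes passed in either direction. Both calls were lost with DESeq2, with adjusted p = 0.195 for DUSP1 and 0.145 for FKBP5. They were also lost without control replicate 2, RUNX3 KO replicate 1 or RUNX3 KO replicate 2. The FKBP5 call was lost without a filter on low counts as well (edgeR adjusted p = 0.0590).

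None of 7 tested zinc exporters (SLC30A family) passed at an edgeR adjusted p under 0.05, 1 did at an unadjusted p under 0.05, 0 did with DESeq2, and their log2 fold changes ran from -0.14 to 0.21. SLC30A1, the exporter that MTF1 is known to induce along with metallothioneins, had 170 and 156 counts in control and 197 and 165 in RUNX3 KO libraries, or 0.14 on the log2 scale (SE 0.115, edgeR adjusted p = 0.333). Of 10 tested importers (SLC39A family), 2 were lower and 4 higher, where 48.9% of all tested genes passed in either direction. Lower genes numbered 4 without control replicate 1 and 1 without RUNX3 KO replicate 1 or 2, and higher genes 2 without RUNX3 KO replicate 1. SLC39A8, which also carries manganese and cadmium, fell from 445 and 451 counts to 267 and 299 (log2 fold change -0.68, SE 0.0802), and SLC39A9 fell by 0.19. SLC39A10 rose from 846 and 859 counts to 1098 and 1206 (0.42, SE 0.0498), and SLC39A3 rose by 0.29. The calls of SLC39A9 and SLC39A3 were lost without RUNX3 KO replicate 1 (edgeR adjusted p = 0.112 and 0.138), and that of SLC39A9 also without RUNX3 KO replicate 2 (0.122). No zinc transporter reached 2-fold.

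Of 11 tested genes of copper handling, 2 were lower and 2 higher, none by 2-fold, where 24.4% of all tested genes were lower and 24.5% higher. ATP7A, the copper pump, fell by 0.56 (SE 0.102), and ATOX1, the chaperone that delivers copper to it, by 0.22 (SE 0.0680). The ATOX1 call was lost with DESeq2 (adjusted p = 0.128), without a filter on low counts (edgeR adjusted p = 0.0653) and without control replicate 2 or either RUNX3 KO library. ATP7A lost its call without RUNX3 KO replicate 1 (edgeR adjusted p = 0.0522) or 2 (0.0736), so that 0 copper genes were lower in those fits. SCO1, which supplies copper to cytochrome oxidase, rose by 0.41 (SE 0.0465), and SOD1, the copper-zinc superoxide dismutase, by 0.26 (SE 0.0286). In iron handling, 5 of 10 tested genes were lower and 3 higher, against the same 24.4% and 24.5%. TFR2, a transferrin receptor gene, fell from 77 and 81 counts to 15 and 17 (log2 fold change -2.31, SE 0.242), ACO1, an iron-responsive RNA-binding protein gene, fell by 0.44, and SLC40A1, the iron exporter ferroportin, and STEAP3, a ferrireductase gene, rose by 1.15 (SE 0.152) and 1.02 (SE 0.0851).

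Of 12 tested genes of the heat shock and metal stress list, 10 were higher in RUNX3 KO cells, where 24.5% of all tested genes were. The higher genes numbered 8 with DESeq2 and 8 without a filter on low counts. The median log2 fold change of the 12 genes was 0.28. HSPA1B, an inducible chaperone gene of the HSP70 family, rose by 0.65 (SE 0.0598), and HSPB1, a small heat shock protein gene, by 0.44 (SE 0.0297). HSPA1B and HSPA1A share most of their sequence, so the split of reads between them is uncertain. HMOX1, heme oxygenase, which oxidants and heavy metals induce, was the single gene of this list that fell, from 360 and 330 counts to 239 and 252 (-0.50 on the log2 scale, SE 0.0882, edgeR adjusted p = 9.00e-07).

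**Figure D4:**
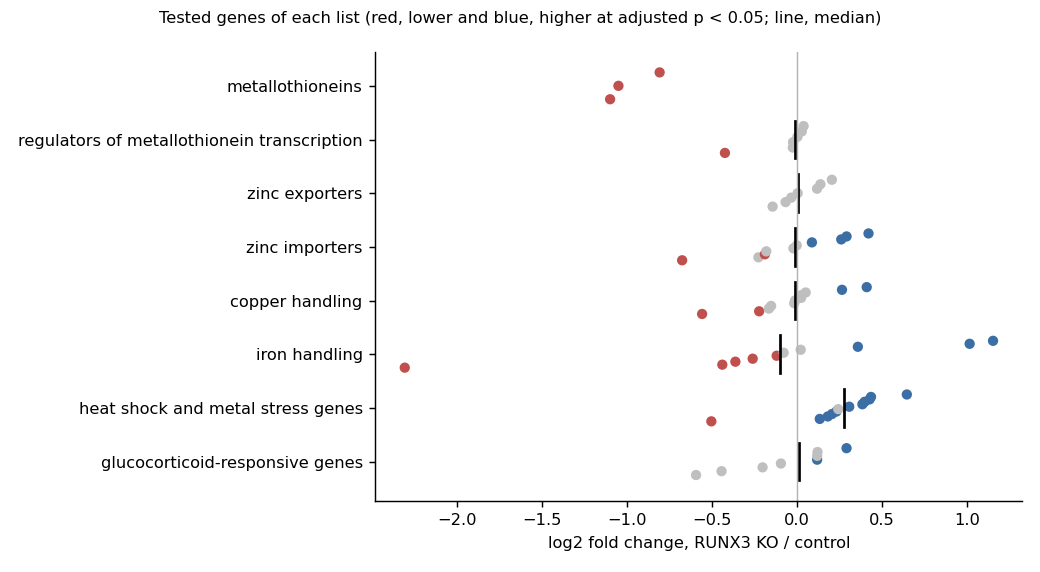
Log2 fold change of RUNX3 KO over control (x axis) for the tested genes of each list (rows); red points are lower and blue points higher at an adjusted p under 0.05, grey points did not pass, and the black line is the median of each list but the metallothioneins. Metallothioneins lie at -0.81 or below, zinc exporters are all grey around 0, and the heat shock genes have a median of 0.28.

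The tested genes whose levels followed the sum of the members most closely over the 4 libraries, by Euclidean distance of centred log2(CPM + 0.1), were TBC1D10A (distance 0.0653), HOXD3 (0.0699), ELFN2 (0.0792), LOC100506472 (0.0812) and DEPDC5 (0.0831). Their log2 fold changes ran from -1.06 to -0.99. With 4 libraries in 2 groups this likeness says little more than an equal fold change.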

How the data were processed

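RNA-seq libraries of 2 HGC-27 control and 2 RUNX3 KO samples were used. The authors deposited, per library, raw read counts per gene symbol without normalization. The submitters' processing notes name bcl2fastq, HISAT2 2.1.0, HTSeq and hg19, whereas the methods name STAR, featureCounts and GENCODE. Annotation version and strand setting are not given in the sources used here. The tables close with 5 rows of reads without a gene (25.9% to 28.1% of all counts), which were left out.

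The counts were fitted with edgeR 4.0.16 under R 4.3.3 (filterByExpr with a minimum count of 10 and minimum total of 15, TMM, glmQLFit and glmQLFTest, Benjamini-Hochberg adjustment over 12967 genes). The SE is the log2 fold change over the square root of F. CPM use TMM-scaled library sizes, and SD are over 2 libraries. An exact permutation test of 2 against 2 could reach only p = 0.333, so none was used. Depth limits low genes: 3 counts is the floor. Intervals were computed with scipy 1.17.1 and cover counting error only. Alternatives were DESeq2 1.42.0, limma-voom (limma 3.58.1), other scalings and filters, a replicate block and each library left out. Gene positions and coding sequences came from GENCODE on GRCh37 (21490 of 25559 symbols matched, 2117 through RefSeq synonyms), with alignments by Biopython 1.88. The steps were tested on simulated data.

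Members and lists were chosen with earlier results of these data known. Named genes are all members, other metallothionein genes with a read, RUNX3, MTF1, SLC30A1, up to the 2 largest rises and falls per list among genes that passed, the 5 tested genes on each side of the cluster (1 of which is not reported here and was left out of the neighbours' counts and median) and the 5 nearest in pattern. BBS2, the listed metallothionein genes without reads, the regulators and HSPA1A that did not pass, NR3C1, the promoter-only genes and the marker genes were named besides. Protein sequences were not used here.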

Additional observations from a re-analysis of the deposited data

How the results depend on the processing

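MT2A kept its direction and its adjusted p under 0.05 in every alternative run, but fell just short of 2-fold without RUNX3 KO replicate 2. MT1G lost its call with DESeq2 (log2 fold change -1.06) and without a filter on low counts (-1.05), and it ranged from -1.19 to -0.89 with each library left out. MT1X ranged from -1.03 to -0.55 and MT2A from -1.21 to -0.99 in those fits, in which the lone library of a condition is assumed to vary like the pair of the other. The log2 ratio of the summed members ranged from -1.13 to -0.91 there, and the other scalings and the sum over all metallothionein genes moved it by less than the spread between replicates. The member counts here include MT1G, which was tested only through the libraries where it was high, and support nothing. Members lower by at least 2-fold and p at most 0.05 numbered 2 (4.01% of all tested genes were), but 1 with DESeq2 and 1 with at least 10 counts required in every library, which removes MT1G, and from 0 to 2 with a library left out. At an adjusted p under 0.05 they numbered 3 (24.4% of all tested genes were lower), 2 with DESeq2, without a filter and with at least 10 counts in every library, and from 1 to 2 with a library left out.

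Requiring 10 counts in every library left 298 lower and 160 higher genes of the 520 and 274 found here with the study's criteria. The study itself reported more genes in both directions, after another normalization. At an adjusted p under 0.05, DESeq2 called 1863 lower and 1829 higher genes against 3158 and 3183, and with a library left out the numbers ranged from 1378 to 2806 and from 1285 to 2745. Of 64 tested genes over the 7 metal and regulator lists, 11 were lower and 21 higher (24.4% and 24.5% of all tested genes were), 10 of the latter from the heat shock list, and 7 to 12 lower and 15 to 19 higher with a library left out. Deviations of same-numbered libraries had a correlation of 0.0257. This cannot show whether they were handled in pairs, since libraries of a condition differed by little more than counting error. The replicate block gave -1.10 for MT2A and changed no call among the members. With a library left out, 3 genes that did not pass the test changed sign, MTF1 (-0.0792 to 0.0300), NUP93 (-0.0068 to 0.0906) and SLC30A1 (-0.0064 to 0.273). The cause of the other changes was not tested.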
